A study of Mus musculus with 18 samples.

Results

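The mitochondrial genome of the mouse encodes 37 genes, and all of them were rows of the count table of small intestinal crypts analysed here. They were taken as every row whose gene name starts with mt-, which gave 37 of 55335 genes, namely 2 rRNA genes, 13 mRNA genes and 22 tRNA genes, all on chromosome M. The libraries came from mice aged 8 to 12 weeks in which both alleles of Prmt1, a protein arginine methyltransferase gene, carry LoxP sites. KO mice (PRMT1 fl/fl;Vil-CreERT2) also carried a tamoxifen-activated Cre recombinase under the villin promoter, which is active in intestinal epithelium, and WT mice (PRMT1 fl/fl) were littermates without it. Both genotypes received 2 mg tamoxifen per injection, given 2 times before collection at day 2 and 5 times before collection at days 7 and 14. Each of the 6 groups of genotype and day had 3 libraries from 3 mice, 18 in all. The WT mice carried no Cre, so the KO groups differ from them by the recombinase as well as by loss of Prmt1, and both genotypes share the floxed alleles and the tamoxifen.

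The 13 mitochondrial mRNAs encode subunits of the respiratory chain and of ATP synthase, and they are translated on mitochondrial ribosomes built around the mitochondrial 12S and 16S rRNAs. The small circular genome is transcribed on both strands into long polycistronic RNAs. The tRNAs sit between most of the rRNA and mRNA genes, and their excision releases the neighbouring transcripts. Because all 13 proteins work together with many nuclear-encoded subunits, epithelial cells that turn over as quickly as those of the crypt depend on supply from both genomes.

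As a check of the tissue, 10 markers of crypt epithelium summed to 5296 to 10529 CPM (counts relative to the TMM-scaled library size) over the 18 libraries, and none was at 0. Immune markers summed to 101 to 1125 CPM and stromal and muscle markers to 27.4 to 170 CPM, with 10 genes in each list. Villus enterocyte markers summed to 7111 to 41424 CPM and crypt base markers (stem and Paneth cells) to 1670 to 21247 CPM. The check thus concerns epithelium and does not separate crypt from villus cells.

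The gene map shows why neighbours were not independent measurements. Of the 37 genes, 28 lie on the plus strand of chromosome M in build GRCm38, and 9 lie on the minus strand, namely 8 tRNA genes and mt-Nd6. The 22 tRNA genes are 59 to 75 bases long, shorter than the 100-base reads, and a fragment that covers several genes was counted for each of them. mt-Tl1 (a leucine tRNA gene, chrM:2676-2750) ends 1 base before mt-Nd1 (chrM:2751-3707) begins, mt-Tm (the methionine tRNA gene, chrM:3845-3913) ends 1 base before mt-Nd2 (chrM:3914-4951), and mt-Tw (the tryptophan tRNA gene, chrM:4950-5016) overlaps the end of mt-Nd2. These 5 genes belong to the 7 that differed between genotypes at day 7, so they are shown here as annotated, on the plus strand. The 3 tRNAs carry their anticodon in capitals, and mt-Nd1 and mt-Nd2 are given by their first 60 bases with the first codon in capitals.
mt-Tl1: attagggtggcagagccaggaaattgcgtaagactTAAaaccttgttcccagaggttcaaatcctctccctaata
mt-Nd1: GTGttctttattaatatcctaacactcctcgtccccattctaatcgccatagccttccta
mt-Tm: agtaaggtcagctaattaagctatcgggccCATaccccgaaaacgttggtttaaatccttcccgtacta
mt-Nd2: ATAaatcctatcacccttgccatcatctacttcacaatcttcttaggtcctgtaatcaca
mt-Tw: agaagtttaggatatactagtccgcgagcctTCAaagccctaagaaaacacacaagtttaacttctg

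The other genes that differed at day 7 were mt-Atp8 (chrM:7766-7969) and mt-Atp6 (chrM:7927-8607), which encode ATP synthase subunits in 2 overlapping reading frames. The 43 bases that they share are in capitals in the last 90 bases of mt-Atp8 and the first 90 bases of mt-Atp6. A fragment over these bases counted for both genes.
mt-Atp8: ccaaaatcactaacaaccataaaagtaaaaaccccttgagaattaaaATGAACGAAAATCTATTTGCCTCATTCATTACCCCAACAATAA
mt-Atp6: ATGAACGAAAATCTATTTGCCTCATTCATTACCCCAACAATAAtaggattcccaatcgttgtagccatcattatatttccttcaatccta

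Mitochondrial transcripts were among the most abundant in these libraries. The 37 genes took 6.84% to 12.7% of all counts in a library (median 10.1%), from library totals of 12844642 to 31493484. The 2 rRNA genes took 3.91% to 9.01%, the 13 mRNA genes 1.94% to 3.58% and the 22 tRNA genes 0.0541% to 0.130%. By mean count over the 18 libraries, mt-Rnr2 (16S rRNA, chrM:1094-2675) ranked 1 among all genes, mt-Co1 (cytochrome c oxidase subunit 1, chrM:5328-6872) ranked 3 and mt-Rnr1 (12S rRNA, chrM:70-1024) ranked 6. The libraries were made after depletion of ribosomal RNA, so the rRNA counts are what the depletion left, and its part in their spread was not tested.

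Levels of different genes were compared per length, as RPKM (CPM per kilobase of gene). Averaged over the 18 libraries, the level was 37970 RPKM for mt-Rnr2, 10607 for mt-Rnr1 and 10164 for mt-Co1. Among the other mRNAs it was 3747 for mt-Nd1 and 3422 for mt-Cytb (cytochrome b of complex III). The other complex I genes had 1015 RPKM for mt-Nd5, 983 for mt-Nd2, 849 for mt-Nd4 and 778 for mt-Nd6. In contrast to these, the mRNA genes from mt-Co2 to mt-Nd4l all stood below 200 RPKM, with 165 for mt-Co3, 112 for mt-Co2, 53.0 for mt-Atp8, 49.9 for mt-Atp6, 15.7 for mt-Nd3 and 9.52 for mt-Nd4l. The tRNA genes mt-Tk, mt-Tg and mt-Tr in the same stretch, and mt-Td just before it, had 0 to 12 counts in any library. They were the 4 members that did not pass the filter on low counts. The remaining 33 genes were tested.

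**Figure D1:**
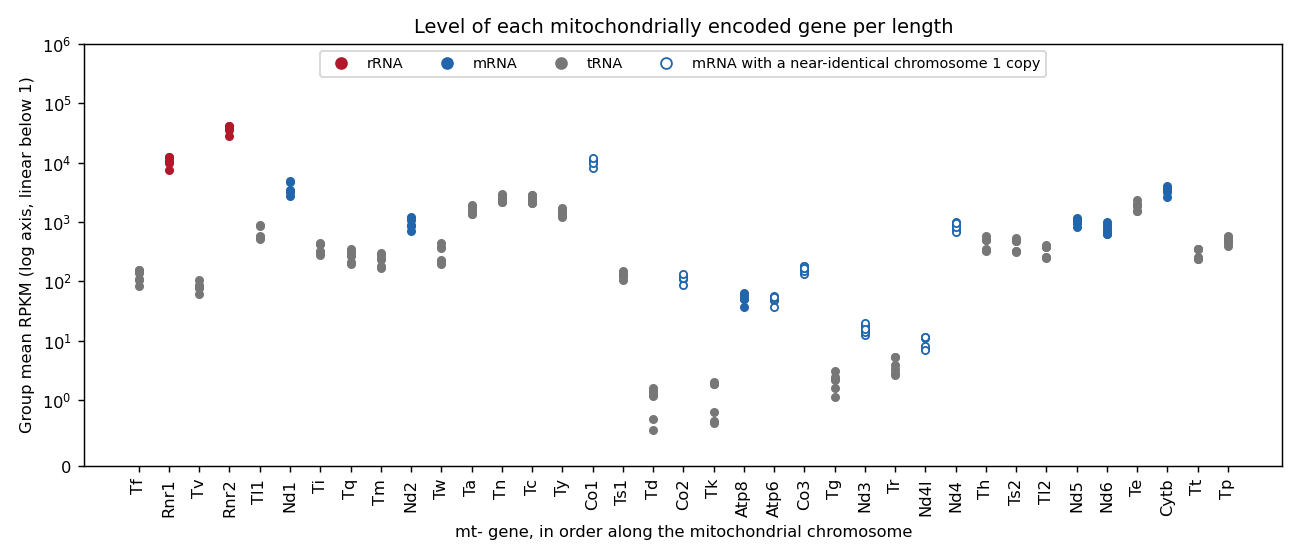
Group mean RPKM (log axis, linear below 1) of each of the 37 mt- genes, in order along the mitochondrial chromosome, with 1 point per group of 3 libraries, filled by class of gene and open for the 7 mRNA genes with a near-identical copy on chromosome 1. The mRNA genes from mt-Co2 to mt-Nd4l sit below all the other mRNA genes in each of the 6 groups.

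Much of this low stretch has annotated copies on chromosome 1. Of the 37 mitochondrial transcripts, 7 had an annotated nuclear copy of at least 99% identity over at least 100 bases, and all 7 copies were pseudogenes on the minus strand of chr1:24611535-24616197. The copies of mt-Co2 (Gm28661, 681 bases), mt-Atp6 (Gm10925, 678 bases), mt-Co3 (Gm28437, 783 bases), mt-Nd4l (Gm10222, 294 bases) and mt-Nd4 (Gm28439, 876 of 1378 bases) had no mismatch. The copy of mt-Nd3 (Gm28438, 345 bases) and that of the last 483 bases of mt-Co1 (Gm29216) had 1 mismatch each. Fragments that fit several places were not counted, so fragments that lie wholly within an identical run could be assigned neither to the mitochondrial gene nor to its copy. The mismatches are T3C in mt-Nd3 and A1066T in mt-Co1, counted from 1 at the first base of the gene, with the mitochondrial base first. They are in capitals in the next 4 sequences, where the alignment of mt-Co1 with Gm29216 begins at base 1063 of mt-Co1, 3 bases before A1066T, and the bases printed before it lie outside the aligned part.
mt-Nd3: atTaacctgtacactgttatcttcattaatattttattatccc
Gm28438: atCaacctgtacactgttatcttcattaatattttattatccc
mt-Co1: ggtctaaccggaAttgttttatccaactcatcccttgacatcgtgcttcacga
Gm29216: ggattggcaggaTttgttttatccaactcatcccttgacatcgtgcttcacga

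In this stretch the pseudogene often had more counts than the mitochondrial gene. mt-Co2 had a mean of 1605 counts per library against 3388 for Gm28661, mt-Atp6 had 709 against 1132 for Gm10925, and mt-Nd3 had 116 against 669 for Gm28438. mt-Co3 had 2718 against 2001 for Gm28437. The levels of mt-Co2, mt-Atp6, mt-Co3, mt-Nd3 and mt-Nd4l are therefore uncertain, and their values are those of the fragments that could be placed. The same loss of fragments applies to 63.6% of mt-Nd4 and 31.3% of mt-Co1, so their levels are uncertain to that extent. The doubt also holds for mt-Atp8, which lies in the same stretch and shares 43 bases with mt-Atp6 that are also in Gm10925. Its other bases fall between annotated copies and were not compared with chromosome 1.

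As a check of the genotype labels, Prmt1 was lower in KO than in WT crypts on each day, with log2 fold changes of -0.89 at day 2 (adjusted p = 0.0264), -0.59 at day 7 (adjusted p = 0.00675) and -0.72 at day 14 (adjusted p = 0.00329, edgeR's quasi-likelihood test). The level of Prmt1 in KO libraries ranged from 13.1 to 17.4 CPM over the 3 days, against 20.2 to 30.6 CPM in WT libraries. The exact two-sided permutation test gave p = 0.1 on each day, the smallest that 3 against 3 libraries allow. The call was lost at day 2 when any 1 of the 6 libraries was left out and at day 7 without KO replicate 1 (adjusted p = 0.0655), while the log2 fold change stayed negative.

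At day 2, no mitochondrial gene passed the test between KO and WT crypts, and the lowest values were those of the rRNA end of the genome. Of 33 genes, 0 were called, that is had a Benjamini-Hochberg adjusted p under 0.05 among the 21349 genes tested with edgeR's quasi-likelihood method, where 0.0328% of all genes were. An unadjusted p under 0.05 was found for 2 of them (6.06%, beside 3.33% of all genes), and DESeq2 called 0 (0.0609% of all genes). The median log2 fold change of the 33 genes was -0.07, beside 0.00 over all genes. The 13 mRNA genes lay between -0.30 and 0.15 and the 18 tRNA genes tested between -0.87 and 0.35. None of the marker lists of other cell types had a called gene at day 2.

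The rRNAs were low in 2 of the 3 KO libraries of day 2. mt-Rnr1 stood at 10162, 4935 and 6684 CPM in the KO libraries and at 10975, 11366 and 13476 CPM in the WT libraries. mt-Rnr2 stood at 60742, 32745 and 40667 CPM in KO and at 64888, 61812 and 71150 CPM in WT. Thus all 3 KO values lay below all 3 WT values for both rRNAs, although KO replicate 1 lay close to WT. The log2 fold changes were -0.72 ± 0.29 (SE) for mt-Rnr1 and -0.56 ± 0.30 for mt-Rnr2, both with an adjusted p of 0.999. The phenylalanine tRNA gene mt-Tf (chrM:1-68), which precedes mt-Rnr1, had 7.32, 3.14 and 6.73 CPM in KO and 8.65, 8.58 and 14.2 CPM in WT, which gave a fold change on the log2 scale of -0.87 ± 0.29 (adjusted p = 0.999). These 3 were the members whose KO and WT values did not overlap at day 2, and 3.86% of all genes had KO below WT without overlap. In the same libraries, the summed level of 9 nuclear-retained and structural RNAs was 57949 to 66921 CPM in KO and 49494 to 54587 CPM in WT, again without overlap. Of the 9 RNAs, 0 were called, and their median log2 fold change was 0.05. The part of this sum in the rRNA values was not tested.

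As a share of all counts, the 2 rRNAs took 7.16%, 3.91% and 4.54% in the KO libraries of day 2, against 7.53%, 7.98% and 7.23% in the WT libraries. The groups did not overlap. The 13 mRNA genes took 2.65% ± 0.203 in KO and 2.68% ± 0.518 in WT crypts (SD, n = 3 each), which differed by less than the spread between libraries. The number of 16S counts per 12S count was 5.98 to 6.64 in KO and 5.28 to 5.91 in WT crypts at day 2, and 6.38 to 7.13 against 4.10 to 6.09 at day 14, without overlap on either day. At day 7 it was 5.86 to 7.61 in KO and 4.97 to 6.03 in WT, and the ranges overlapped.

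**Figure D2:**
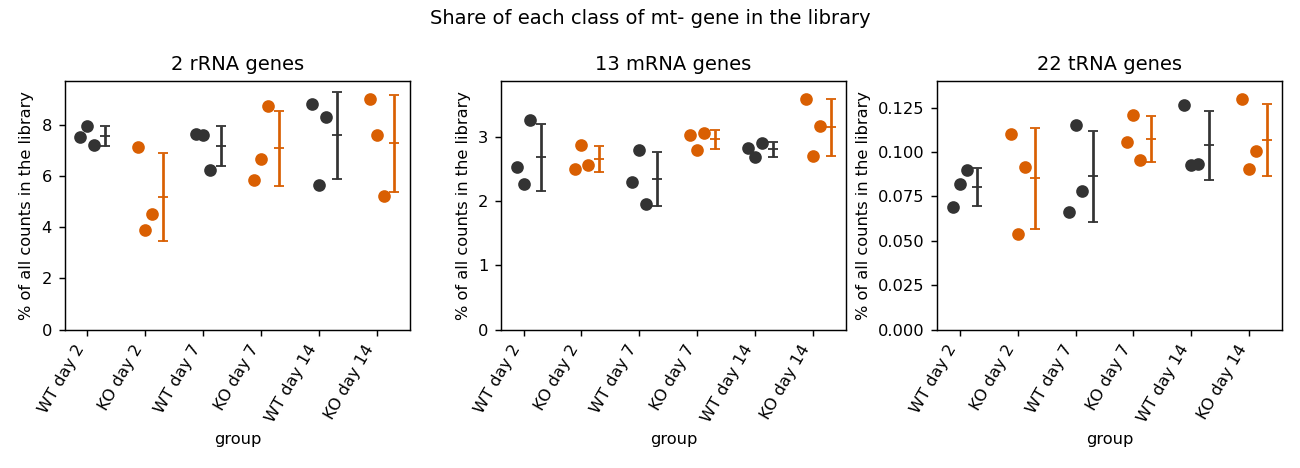
Share of all counts (%, vertical axes from 0) taken by the 2 rRNA, 13 mRNA and 22 tRNA genes in each of the 18 libraries, WT in grey and KO in orange, with the mean and SD of each group beside its 3 points. The rRNA share is below WT in the 3 KO libraries of day 2, and the mRNA share is 1.94% to 2.78% in WT and 2.79% to 3.06% in KO at day 7.

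At day 7, 7 mitochondrial genes were higher in KO crypts and 0 were lower. The 7 were mt-Tl1, mt-Nd1, mt-Tm, mt-Nd2, mt-Tw, mt-Atp8 and mt-Atp6, with log2 fold changes of 0.62 to 0.87, that is 3 tRNA genes, 2 complex I genes and 2 ATP synthase genes. They were 7 of 33 genes tested, or 21.2%, where 17.3% of all genes were called in either direction and 7.11% were called higher. An unadjusted p under 0.05 was found for 12 genes, all of them with a positive fold change, which is 36.4% beside 29.9% of all genes in either direction. DESeq2 called 8, or 24.2% beside 19.4% of all genes. In either direction these shares are thus not far from those of all genes. The median log2 fold change of the 33 genes was 0.46, beside 0.02 over all genes, and 30 of the 33 had a positive value. It was 0.46 for the 13 mRNAs, 0.48 for the 18 tRNAs tested, which lay between -0.12 and 0.75, and 0.04 for the 2 rRNAs. From day 2 to day 7, all 13 mRNAs had negative log2 fold changes in WT crypts (median -0.37). In KO crypts 12 of the 13 were positive (median 0.26). None of the 13 was called in either genotype, where 0.553% (WT) and 16% (KO) of all genes were. The mRNA difference at day 7 thus combined lower WT and higher KO values.

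The first 5 of these genes lie within chrM:2676-5016, directly after the rRNA genes. mt-Nd1, a core subunit of complex I, stood at 5504, 4606 and 4215 CPM in the KO libraries of day 7 and at 2345, 3338 and 2155 CPM in the WT libraries. Its log2 fold change was 0.87 ± 0.24 (SE, adjusted p = 0.0169). The adjacent mt-Tl1 stood at 64.2, 61.2 and 66.3 CPM in KO and at 32.7, 50.8 and 33.2 CPM in the WT libraries, and its log2 fold change was 0.72 ± 0.18 (adjusted p = 0.00981). The KO values lay above all WT values for both genes, and WT replicate 2 was the highest WT library for both.

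mt-Nd2, another complex I subunit, had 1215, 1164 and 1389 CPM in KO and 739, 918 and 577 CPM in WT crypts (log2 fold change 0.75 ± 0.24, adjusted p = 0.0326). On either side of it, mt-Tm had 16.3, 20.01 and 20.3 CPM in KO and 11.5, 12.7 and 10.8 CPM in WT (0.70 ± 0.21 on the log2 scale, adjusted p = 0.026). mt-Tw had 24.5, 26.7 and 24.5 CPM in KO and 15.04, 16.9 and 13.2 CPM in WT (0.75 ± 0.18 on the log2 scale, adjusted p = 0.0059). In these 3 genes too no WT library reached a KO library. mt-Ti and mt-Tq, the isoleucine and glutamine tRNA genes between mt-Nd1 and mt-Tm, had log2 fold changes of 0.58 (adjusted p = 0.191) and 0.62 (adjusted p = 0.0588).

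The ATP synthase genes had far fewer counts. mt-Atp8 stood at 14.2, 10.8 and 14.3 CPM in KO and at 7.20, 9.65 and 5.39 CPM in WT crypts, a log2 fold change of 0.83 ± 0.21 (adjusted p = 0.0105). mt-Atp6 stood at 38.7, 34.8 and 43.8 CPM in KO and at 25.9, 33.3 and 17.2 CPM in WT, which on the log2 scale is a difference of 0.62 ± 0.21 (adjusted p = 0.0477). The call of mt-Atp6 was lost with library totals in place of TMM and with the replicate number as a block. The ranges came close to each other, with WT replicate 2 just under the lowest KO library in both genes. The copy of mt-Atp6 on chromosome 1, Gm10925, had a log2 fold change of 0.47 (adjusted p = 0.184), and mt-Atp6 was not called when the counts of both were added (an alternative chosen after the data were seen). With copies added, mt-Nd3 and mt-Nd4l were called instead, which gave 8 genes in all, beside 17.9% of all genes called in that fit. The 7 copies had log2 fold changes of 0.10 to 0.65 at day 7, and none was called.

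**Figure D3:**
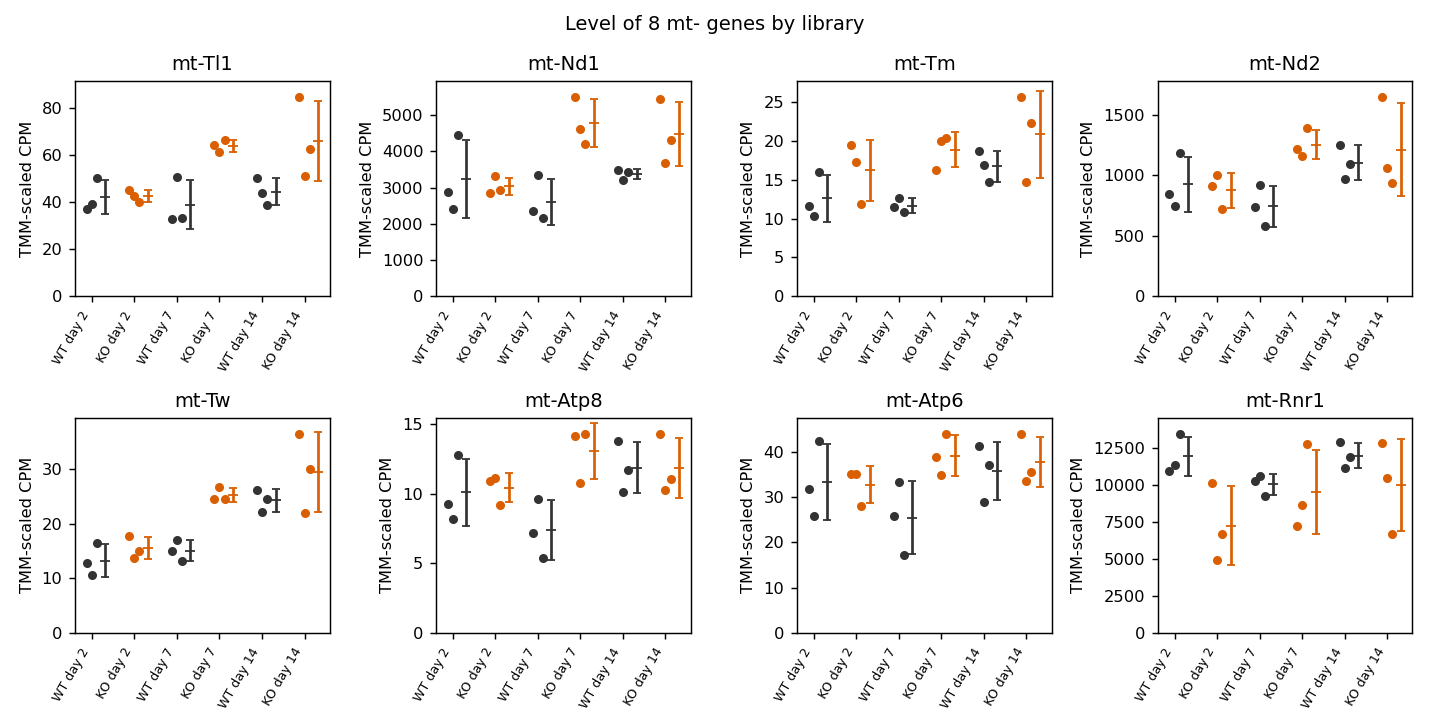
TMM-scaled CPM (vertical axes from 0) of the 7 genes called at day 7 and of mt-Rnr1 in each library by group, WT in grey and KO in orange, with the mean and SD beside the points. At day 7 the 3 KO points are above the 3 WT points in each of the 7 genes, while the ranges of mt-Rnr1 overlap.

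The other complex I genes, cytochrome b and the cytochrome c oxidase genes did not pass the test at day 7. The log2 fold changes were 0.68 for mt-Nd3, 0.66 for mt-Nd4l, 0.46 for mt-Cytb, 0.44 for mt-Co2, 0.41 for mt-Co1, 0.39 for mt-Nd5 and 0.35 for mt-Nd6, with adjusted p-values of 0.0888 to 0.358. They were 0.25 for mt-Nd4 (adjusted p = 0.514) and 0.16 for mt-Co3 (adjusted p = 0.677). mt-Rnr1 (-0.07) and mt-Rnr2 (0.16) had adjusted p-values of 0.900 and 0.781. The 5 tRNA genes with the most counts, mt-Tn, mt-Tc, mt-Te, mt-Ta and mt-Ty, had log2 fold changes of 0.28 to 0.51 with adjusted p-values of 0.342 to 0.502. All 5 lie on the minus strand, and since strand was not used in counting, RNA from the opposite strand cannot be told apart in them.

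In 17 of the 33 genes, all 3 KO values lay above all 3 WT values at day 7, and in 0 they lay below, where 15.9% of all genes had KO above WT without overlap. The 17 comprised 8 mRNA and 9 tRNA genes. Of the tRNA genes, 4 lie outside the stretch around mt-Nd1 and mt-Nd2. mt-Th (histidine) had 34.2, 39.2 and 44.9 CPM in KO and 22.8, 23.2 and 24.4 CPM in WT crypts, and its log2 fold change of 0.75 ± 0.30 did not pass the test (adjusted p = 0.101). mt-Ts2 (serine) and mt-Tl2 (leucine), which follow it on the chromosome, had 0.72 (adjusted p = 0.189) and 0.70 (adjusted p = 0.188), and mt-Tt (threonine) had 0.43 (adjusted p = 0.256). The 13 mRNA genes took 3.03%, 2.79% and 3.06% of all counts in KO and 2.29%, 2.78% and 1.94% in WT crypts. These ranges were separated by a narrow gap, and they overlapped when mitochondrial counts were left out of the denominator (3.08% to 3.47% in KO, 2.12% to 3.11% in WT). The exact two-sided permutation test of the share gave p = 0.1, the smallest possible, and p = 0.2 with the other denominator. No test of the share was planned, since it is a score over the members. The members were chosen with earlier results of these data known, so the test does not decide whether the share differed.

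The adjusted p of most day 7 calls depended on single libraries, while the fold changes stayed positive. Without WT replicate 3 of day 7 only mt-Tw was called (12.6% of all genes), and without WT replicate 1 only mt-Tw and mt-Atp8 were (11.5%). Without KO replicate 1 (9.43% of all genes) or KO replicate 2 (12.7%) there were 4, mt-Tw and mt-Atp8 among them. A fit with the 6 libraries of day 7 alone called 11, beside 14.8% of all genes, with mt-Th, mt-Ts2, mt-Tl2, mt-Ti and mt-Tq added and mt-Atp6 lost. Over 16 alternatives each of the 7 genes had a positive log2 fold change in 16. The values lay between 0.72 and 1.09 for mt-Nd1, 0.57 and 0.96 for mt-Tl1, 0.60 and 0.93 for mt-Nd2, 0.54 and 0.81 for mt-Tm, 0.59 and 0.84 for mt-Tw, 0.64 and 1.05 for mt-Atp8, and 0.41 and 0.86 for mt-Atp6. mt-Tw was called in 16 of them and mt-Atp6 in 7.

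Other measures moved with genotype in the same day 7 libraries, and their part in the mitochondrial values was not tested. Of 10 markers of the crypt base (stem and Paneth cells), 8 were lower in KO crypts, and their summed level was 1670 to 4640 CPM in KO and 10341 to 15788 CPM in WT. Of 10 villus enterocyte markers, 2 were higher and 1 lower, with summed levels of 18280 to 27269 CPM in KO and 12889 to 16655 CPM in WT. Of 10 stromal and muscle markers, 2 were higher, with sums of 42.0 to 93.6 CPM in KO and 29.3 to 62.6 CPM in WT, none of the 10 was at 0 in every library, and 0 of 10 immune markers were called (170 to 547 CPM against 114 to 288 CPM). Of the 9 nuclear-retained and structural RNAs, 3 were higher and the sum was 110227 to 137848 CPM in KO and 60398 to 78659 CPM in WT. The median log2 fold change of the 9 was -0.13, so their sum does not stand for each of them. With these 9 genes left out before normalization, another alternative chosen after the data were seen, the 7 mitochondrial genes were called as before. In bulk crypts, a change in the mix of cells and a change of RNA per cell cannot be told apart.

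Within the mitochondrial mRNAs, the KO crypts of day 7 had relatively more mt-Nd1. Its share of the counts on the 13 mRNA genes was 17.1%, 16.1% and 13.8% in KO and 11.1%, 12.3% and 12.5% in WT crypts. At day 14 it was 13.1% to 14.5% in KO and 11.6% to 12.7% in WT, again without overlap, whereas at day 2 the means were 11.5% in both genotypes. The share of mt-Nd2 was 3.77% to 4.54% in KO and 3.36% to 3.50% in WT crypts at day 7, and the ranges overlapped at days 2 and 14. The largest share was that of mt-Co1, at 56.4%, 53.4% and 52.3% in KO and 56.4%, 56.9% and 57.8% in WT crypts at day 7, where the KO values lay below WT by a margin smaller than the rounding. The share of mt-Co3, whose level is uncertain because of its copy, was lower in KO without overlap, at 0.378% to 0.399% against 0.440% to 0.509% at day 7 and at 0.395% to 0.420% against 0.459% to 0.487% at day 14. mt-Nd4, most of which is also copied, took 3.36% to 4.48% in KO and 4.60% to 5.08% in WT at day 14. In all, 6 of the 13 shares did not overlap at day 7 (mt-Nd1, mt-Nd2, mt-Atp8 and mt-Nd3 higher in KO, mt-Co1 and mt-Co3 lower), 3 did not at day 14 (mt-Nd1 higher, mt-Co3 and mt-Nd4 lower) and 0 at day 2. The mt-Nd3 share was 0.0216% to 0.0240% in KO and 0.0191% to 0.0203% in WT at day 7, from few counts. Shares of a fixed whole are tied to each other, and no test was run on them. These counts of shares have no counterpart over all genes to stand beside, so they are given as a description only. The ratio of mt-Nd6 counts to mt-Nd5 counts overlapped between genotypes on each day (0.179 to 0.281 over the 18 libraries). mt-Nd6 (chrM:13552-14070) lies on the minus strand and overlaps the end of mt-Nd5 (chrM:11742-13565), and without strand in the counting its counts cannot be told apart from RNA of the opposite strand, so the ratio does not compare the strands.

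**Figure D4:**
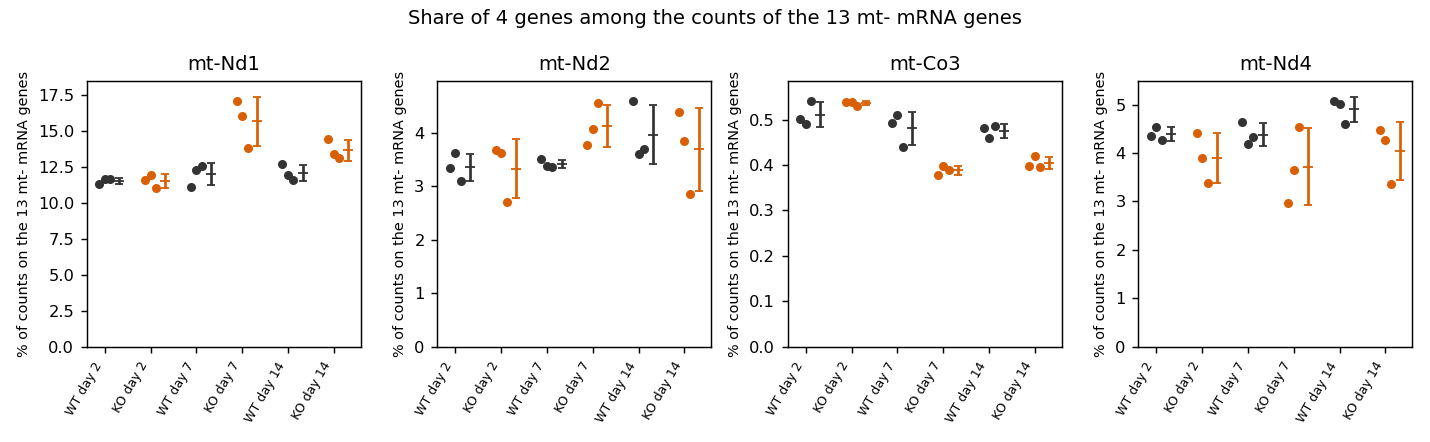
Share (%, vertical axes from 0) of mt-Nd1, mt-Nd2, mt-Co3 and mt-Nd4 among the counts of the 13 mt- mRNA genes in each library, WT in grey and KO in orange, with the mean and SD beside the 3 points. The mt-Nd1 share of KO is above that of WT at days 7 and 14 and between 11.02% and 11.9% at day 2.

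At day 14, 0 of 33 mitochondrial genes were called, where 7.92% of all genes were. An unadjusted p under 0.05 was found for 1 gene, mt-Tl1 (3.03% of the 33, beside 21.6% of all genes), which DESeq2 called as its only member (9.76% of all genes). mt-Tl1 had 84.7, 51.0 and 62.4 CPM in KO and 50.5, 43.9 and 38.9 CPM in WT crypts, with a log2 fold change of 0.57 ± 0.18 (adjusted p = 0.0596). Over the 16 alternatives its log2 fold change at day 14 lay between 0.36 and 0.75. It was called in 4 of them, that is with DESeq2, with normalization without the mitochondrial genes, with no filter on low counts and without KO replicate 2 of day 14, whereas its adjusted p rose to 0.296 without KO replicate 1. mt-Nd1 had 5447, 3689 and 4307 CPM in KO and 3473, 3218 and 3418 CPM in WT, and the log2 fold change was 0.41 ± 0.24 (adjusted p = 0.343). In both, all KO values exceeded all WT values, and they were the only 2 of the 33 genes without overlap, beside 12.4% of all genes with KO above WT in this way. The median log2 fold change of the 33 genes was 0.05, beside 0.00 over all genes, with the mRNAs between -0.20 and 0.41 and the tRNAs between -0.54 and 0.57. KO replicate 1 of day 14 had the highest mitochondrial share of the 18 libraries, 12.7%. The sum of the 9 nuclear-retained and structural RNAs was 100736 to 153874 CPM in KO and 82321 to 95642 CPM in WT crypts. Of the 9 RNAs, 0 were called, and their median log2 fold change was 0.06. Of the 10 crypt base markers 1 was lower at day 14, and their sum was 6561 to 8338 CPM in KO and 10613 to 21247 CPM in WT crypts. The part of both in the mitochondrial values was not tested.

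**Figure D5:**
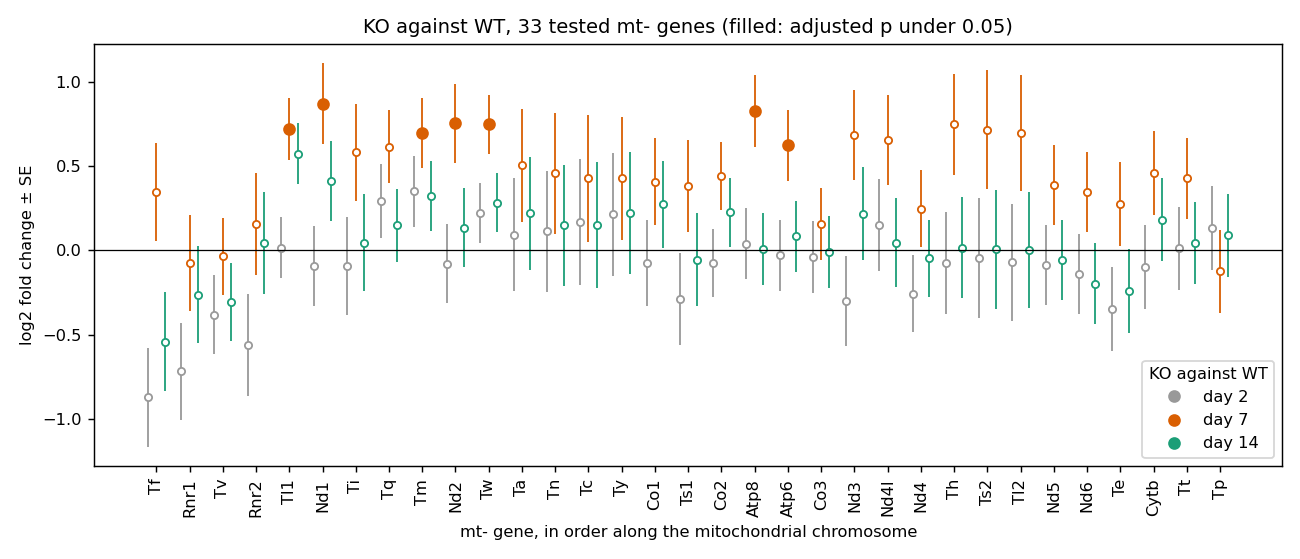
log2 fold change (± SE) of KO against WT for the 33 tested mt- genes in order along the mitochondrial chromosome at days 2, 7 and 14, filled where the adjusted p was under 0.05. The 7 filled points are all of day 7 and positive, and the rRNA end of the genome holds the most negative values of day 2.

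The change of the KO effect between days was tested directly. From day 2 to day 7 the difference was positive in 32 of 33 genes, with a median of 0.52 on the log2 scale beside 0.00 over all genes, but 0 of the 33 were called, where 4.37% of all genes were. An unadjusted p under 0.05 was found for 8 (24.2%, beside 18.1% of all genes), and DESeq2 called 1 (3.03%, beside 6.57%). The difference was 1.22 ± 0.41 for mt-Tf (adjusted p = 0.107) and 0.96 ± 0.34 for mt-Nd1 (adjusted p = 0.121). From day 7 to day 14 it was negative in 32 of 33 genes with a median of -0.44, and 0 of the 33 and 0% of all genes were called, with 2 members at an unadjusted p under 0.05 (6.06%, beside 4.46% of all genes) and 0 called by DESeq2 (0.00995% of all genes). A difference of the mitochondrial genes between days was thus not established by these tests. These comparisons share libraries with those above.

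Over time, mt-Tw rose in both genotypes. In WT crypts it had 12.7, 10.5 and 16.4 CPM at day 2 and 26.1, 22.03 and 24.6 CPM at day 14, a log2 fold change of 0.87 ± 0.18 (adjusted p = 0.0228). It was the 1 gene of 33 called, where 1.61% of all genes were called and 0.735% were called higher, and 0 were called without WT replicate 1 of day 2 (0.101% of all genes) or of day 14 (0.214%). Between WT days 2 and 7, 0 of 33 were called (3 at an unadjusted p under 0.05, or 9.09% beside 22.4% of all genes, and 0 by DESeq2, which called 8.26% of all genes), where edgeR called 0.553% of all genes. In KO crypts mt-Tw had 17.6, 13.8 and 15.1 CPM at day 2 and 36.4, 21.95 and 30.0 CPM at day 14, a log2 fold change of 0.93 ± 0.18 (adjusted p = 0.00221). From day 2 to day 7 it was 0.71 ± 0.18 (adjusted p = 0.00967). mt-Tl1 was the other gene called in KO crypts, with 0.58 ± 0.18 at day 7 (adjusted p = 0.0355) and 0.63 ± 0.18 at day 14 (adjusted p = 0.0318). These 2 of 33 stand beside 16% of all genes called at day 7 (7.21% higher) and 11.3% at day 14 (5.54% higher), and the KO day 2 libraries were shared by both comparisons. The count fell to 1 when any 1 of the 6 libraries was left out at day 7, and at day 14 without any of the 3 KO libraries of day 2 or KO replicate 1 of day 14. With a library left out, 10% to 16.2% of all genes were called at day 7 and 5.22% to 13.1% at day 14. DESeq2 called 4 of the 33 at day 7 (12.1%, beside 18.1% of all genes) and 3 at day 14 (9.09%, beside 13.9%). Other measures differed between the same groups, and their part in the mt-Tw and mt-Tl1 values was not tested. The 9 nuclear-retained and structural RNAs summed to 49494 to 54587 CPM in WT day 2 and 82321 to 95642 CPM in WT day 14, with 2 of 9 called higher. In KO crypts their sum was 57949 to 66921 CPM at day 2, 110227 to 137848 CPM at day 7 (3 higher and 2 lower) and 100736 to 153874 CPM at day 14 (2 higher and 1 lower). Villus enterocyte markers summed to 18139 to 41424 CPM in WT day 2 and 7111 to 17892 CPM in WT day 14, with 2 of 10 lower. Crypt base markers in KO crypts summed to 9644 to 18504 CPM at day 2, 1670 to 4640 CPM at day 7 (9 of 10 lower) and 6561 to 8338 CPM at day 14 (3 lower). Immune markers summed to 412 to 564 CPM in KO day 2 and 101 to 270 CPM in KO day 14 (1 of 10 called, higher). Crypt epithelium markers summed to 7354 to 9920 CPM in KO day 2 and 5851 to 7066 CPM in KO day 14 (0 of 10 called). Collection days differed in the number of tamoxifen injections, so day and dose cannot be told apart between day 2 and the later days.

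The nuclear genes that serve the mitochondrial genome were examined as lists. Among all genes, 7.11% were called higher and 10.2% lower at day 7, and 3.23% higher and 4.69% lower at day 14. Of 17 genes of mitochondrial transcription and its regulators, 1 was higher and 1 lower in KO crypts at day 7 and likewise at day 14. Tfb1m, which methylates the 12S rRNA, fell by 1.06 (adjusted p = 0.000863) and by 1.12 (adjusted p = 0.00144) on the log2 scale. It had 3.02, 4.11 and 2.79 CPM in KO and 7.27, 6.84 and 6.61 CPM in WT crypts at day 7. Esrra, a nuclear receptor that controls genes of mitochondrial metabolism, had 209, 212 and 201 CPM in KO and 131, 151 and 150 CPM in WT at day 7. Its log2 fold change was 0.53 (adjusted p = 0.0147), and 0.55 at day 14 (adjusted p = 0.0205). The list medians were -0.03 and -0.01.

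Of 14 genes of mitochondrial DNA maintenance, 4 were lower at day 7 and 2 at day 14, with 0 higher. Dguok, the kinase that supplies deoxyguanosine nucleotides within mitochondria, fell by 0.98 at day 7 (adjusted p = 9.97e-05) and by 0.69 at day 14 (adjusted p = 0.00511) on the log2 scale. Its values at day 7 were 8.36, 6.88 and 8.73 CPM in KO and 15.4, 16.3 and 15.6 CPM in WT crypts. Mgme1, an exonuclease of mitochondrial DNA, fell by 0.70 (adjusted p = 0.00148) and by 0.75 (adjusted p = 0.0017). The list median was -0.35 at day 7 and -0.17 at day 14.

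Of 29 genes of mitochondrial RNA processing, modification and decay, 1 was higher and 3 were lower at day 7, and 1 was higher and 1 lower at day 14. Mrm1, a methyltransferase of the 16S rRNA, had log2 fold changes of 0.72 (adjusted p = 0.00167) and 0.89 (adjusted p = 0.000641). Fastkd1, a mitochondrial RNA-binding protein gene, fell by 0.86 (adjusted p = 6.78e-05) and by 0.59 (adjusted p = 0.00389), and Cdk5rap1, which modifies mitochondrial tRNAs, fell by 0.68 at day 7 (adjusted p = 0.00223) and had -0.15 at day 14 (adjusted p = 0.61). The list medians were 0.06 and -0.06.

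The nuclear-encoded partners of the mitochondrial proteins gave few calls. Of 74 nuclear-encoded oxidative phosphorylation subunits, 0 were higher and 1 was lower at day 7, and 0 were called at day 14. The 1 gene was Cox7a1, a cytochrome c oxidase subunit best known from muscle, which fell by 1.17 on the log2 scale (adjusted p = 0.00709). The median log2 fold change of the 74 genes was 0.05 at day 7, beside 0.46 for the 33 mitochondrial genes and 0.02 for all genes. The difference between these lists was not tested. At day 2, 0 genes of the 4 lists were called.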

How the data were processed

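Gene counts were used as deposited. Per the file header, the labels and the study's methods, the authors sequenced total RNA after ribosomal RNA depletion as 100-base pairs, aligned reads with STAR 2.7.3 and counted fragments on mm10 with featureCounts 1.6.4, without strand, with a fragment counted for every gene it overlaps and multi-mapping fragments not counted. The header names a GENCODE annotation other than the one in the methods. The 37 members have the same positions in GENCODE M21 (GRCm38), which supplied the sequences. Near-identical copies were searched with BLAST+ 2.17.0 among annotated transcripts only.

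All 18 libraries were fitted together with edgeR 4.0.16 (filterByExpr, TMM, robust quasi-likelihood test). The 20 genes of the study's list of differences between its male and female samples were left out. With the filter on low counts this left 21349 genes. The study reports samples of both sexes, and the fit had no term for sex. Called means a Benjamini-Hochberg adjusted p under 0.05. DESeq2 1.42.0 was an alternative, and the pipeline was tested on simulated data. Counting noise and the spread between 3 mice set the precision. The gene length column of the table (a number of bases, deposited by the authors) was used for RPKM. The members and all gene lists were chosen with earlier results of these data known. All rRNA and mRNA genes are named, tRNA genes where called between genotypes or among the 5 with the highest counts, and from each nuclear list at most 2 called genes per direction. mt-Ti, mt-Tq, mt-Tf, mt-Th, mt-Ts2, mt-Tl2, mt-Tt and the chromosome 1 copies were named after their values were seen. No column was left unused.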

Additional observations from a re-analysis of the deposited data

How the results depend on the processing

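Each comparison was repeated with DESeq2, its size factors, library totals without TMM, and normalization without the mitochondrial genes. It was also repeated with no filter on low counts, the genes of the sex list kept, and the replicate number as a block. Further repeats used the groups of the comparison alone, and each library left out. The count of mitochondrial genes called between genotypes at day 7, 7, became 11 with the groups of the comparison alone (14.8% of all genes) and 1 to 7 with a library left out (9.43% to 19%). It was 5 with library totals, without mt-Tm and mt-Atp6 (18.4% of all genes), 9 of 37 with no filter (9.26%) and 8 with DESeq2 (19.4%). Library totals moved the median log2 fold change of all genes to -0.14 here, to -0.19 for the change of the KO effect from day 2 to day 7, and to 0.16 for WT day 7 against day 2. At day 14 the count of 0 became 1 with DESeq2 (9.76% of all genes), with normalization without the mitochondrial genes (7.83%) and with no filter (4.66%), and it was 0 to 1 with a library left out (4.73% to 6.08%). For the change of the KO effect from day 2 to day 7 it became 1 with DESeq2 (6.57% of all genes) and with no filter (2.81%), and was 0 to 1 with a library left out (1.98% to 5.96%). For WT day 14 against day 2 it became 0 with the groups alone (0.14% of all genes) and was 0 to 1 with a library left out (0.101% to 3.23%). For KO crypts against day 2 it was 4 at day 7 with DESeq2 (18.1% of all genes), and 1 at day 7 (10% to 16.2%) and 1 to 2 at day 14 (5.22% to 13.1%) with a library left out. No direction of a called gene reversed.

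Prmt1 at day 2 missed the threshold with library totals (-0.86, adjusted p = 0.0582), the block (-0.88, adjusted p = 0.0531) and the groups alone (-0.89, adjusted p = 0.0939), and ranged from -0.95 to -0.82 with a library left out. At day 7 it ranged from -0.66 to -0.47 with a library left out and at day 14 from -0.85 to -0.55. The causes were not tested. The mRNA share, KO minus WT, moved by less than the SD pooled over both groups under the alternatives tried, though with some libraries left out by more than the SD of the less variable group, with 0.418 to 0.839 percentage points at day 7, -0.245 to 0.255 at day 2 and 0.128 to 0.571 at day 14 with a library left out.

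Replicate numbers of KO and WT correlated at -0.222 to 0.498 and not above 0.1 in every pair, so they were not taken as pairs. With the replicate block 6 of the 33 genes were called at day 7, without mt-Atp6, beside 16.4% of all genes. The genes with copies on chromosome 1 are limited by how few fragments could be placed. The 4 tRNA genes with at most 12 counts are limited by those counts, and the reason for the low counts was not tested.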
